A study of Mus musculus with 23 samples.

Results

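The genes described here are the insulin-like growth factor axis on arrays of mouse embryonic stem (ES) cells: the ligand Igf2, its receptors Igf1r and Igf2r, the binding proteins Igfbp2, Igfbp3, Igfbp4, Igfbp5 and Igfbp6, and H19, the noncoding transcript linked to Igf2. They are 9 of the 8799 gene symbols annotated on the array. Every probe set annotated to the 9 symbols was taken, which gave 13 of the 12436 probe sets on the array. Of the 13, 11 passed a filter on low values that 9643 probe sets of the whole array passed. The 9 genes were chosen by values measured on the same arrays, namely their SRF-VP16 against SRFdM-VP16 values in the -/- lines together, in E99, in wild type and over all lines. These values are given as a description with no test.

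SRF-VP16 is a fusion of the transcription factor SRF with the activation domain of the herpesvirus protein VP16. The groups were E81 (-/-), E100 (-/-), E99 (+/-) and wild-type (E14) ES cells, each transfected with an expression plasmid for SRF-VP16, with the control plasmid SRFdM-VP16 or with empty vector. What dM stands for, the gene behind the genotypes, and whether a line is 1 clone are not given in the labels. The share of cells that took up a plasmid is not given either. RNA was taken 72 h after transfection. Each of the 12 groups had 2 arrays, except E100 with vector, which had 1, for 23 arrays in all. Nothing says that duplicates came from separate cultures, so errors and p-values cover only how these arrays vary among themselves, which may be technical.

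Insulin-like growth factors are secreted peptides that drive cell growth and survival through the receptor tyrosine kinase encoded by Igf1r. The protein of Igf2r binds IGF2 at the cell surface and carries it to lysosomes for breakdown. In body fluids and around cells most of the ligand is held by binding proteins, which can block or prolong its action, and IGFBP6 prefers IGF2 over IGF1. Igf2 and H19 are neighbouring imprinted genes under one shared control region, with Igf2 expressed from the paternal and H19 from the maternal copy, and both are active in the embryo. SRF itself acts through a DNA element called the CArG box.

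Igfbp6 and Igf2, the latter by its brighter probe set only, were the members bright with SRF-VP16 and at background in nearly all control arrays. Their promoters are therefore shown 5′ to 3′ on the gene's strand, taken from RefSeq on GRCm38.p6. Each window runs from 250 bases before to 50 after the start site. The first set shows a window without a CArG box and the second the single member window that held one. The Igfbp6 window lies on the plus strand at chr15:102143936-102144235, and its capitals mark a TATA box read on the opposite strand. The Igf2 window lies on the minus strand at chr7:142661222-142661521, at the second of 4 annotated Igf2 starts, and its capitals mark the CArG box.

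Igfbp6: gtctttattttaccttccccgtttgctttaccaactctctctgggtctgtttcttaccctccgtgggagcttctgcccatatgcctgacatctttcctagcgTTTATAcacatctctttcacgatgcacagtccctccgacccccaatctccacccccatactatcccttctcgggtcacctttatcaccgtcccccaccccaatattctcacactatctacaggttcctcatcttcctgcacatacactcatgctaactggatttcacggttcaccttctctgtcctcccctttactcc

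Igf2, second start: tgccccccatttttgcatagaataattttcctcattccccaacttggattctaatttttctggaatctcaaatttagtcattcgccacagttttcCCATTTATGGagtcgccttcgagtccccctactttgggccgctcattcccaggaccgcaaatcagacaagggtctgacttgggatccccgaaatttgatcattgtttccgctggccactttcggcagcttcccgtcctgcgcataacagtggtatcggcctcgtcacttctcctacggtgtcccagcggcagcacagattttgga

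Of 12 promoter windows annotated to 8 of the 9 symbols, 1 held a CArG box: the Igf2 window above, from -155 to -146 relative to the start site. Of all 32851 mouse promoter windows of the same length, 1.63% held a CArG box. The TATA box, searched as TATAAA, was in 13.6% of all windows, and the GC box, searched as GGGCGG, in 35.7%. All 3 motifs were searched on both strands, and letters shared by overlapping motifs counted for each. In the Igfbp6 window TATAAA was present from -148 to -143, with no CArG box and no GC box. These matches describe letters in a window and say nothing about binding, and no match says only that the letters are absent from that window.

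Intensities are those deposited, on a linear scale, and many lie below 0, so some background or mismatch signal had been taken off. An intensity of 58, the 40th percentile of all values, served as a floor before log2, and a value at or under it is called at the floor. The array median ran from 54 to 209. One array stood apart: E81 with SRFdM-VP16, replicate 1, had the lowest median, 43.6% of its values at or below 0 and a Gapdh 5′ over 3′ ratio of -0.93 on the log2 scale, the lowest of the 23. The wild-type controls numbered 2, 1 array with SRFdM-VP16 and 1 with vector, stood apart for Igf2, H19, Igfbp3 and Igf1r. Whether these 2 arrays hold the cells and plasmid of their labels was not tested, so wild-type contrasts that rest on them are also given without them. Pou5f1, a defining factor of ES cells, was between 5994 and 29982 in all 23 arrays. In bulk RNA a change in the share of cells that express a gene and a change in RNA per cell cannot be told apart.

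Igfbp6, which encodes a secreted IGF-binding protein, was at background in nearly all control arrays and was bright in all 8 SRF-VP16 arrays. With SRF-VP16 its intensity was 14409 and 16991 in E81, 27179 and 18535 in E100, 1621 and 936 in E99, and 659 and 1785 in wild type. With SRFdM-VP16 it was -43 and -215 in E81, -174 and -270 in E100, -266 and -126 in E99, and -73 and 40 in wild type, all at the floor. With vector it was 32 and -298 in E81, -35 in E100, -219 and 172 in E99, and 24.6 and 72 in wild type. Hence 13 of the 15 control arrays were at the floor, and the lowest SRF-VP16 value, 659, lay above the highest control value, 172.

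In the -/- lines the SRF-VP16 mean was 19278.5 ± 5535 (SD, n = 4), against 1250 ± 539 in wild type and E99 together (SD, n = 4), a ratio of 15.4. The -/- and the other SRF-VP16 arrays did not overlap. Against SRFdM-VP16 the Igfbp6 level in the -/- lines was at least 323-fold higher, a log2 difference of 8.34 ± 0.38 (SE), since all 4 SRFdM-VP16 arrays were at the floor. By line the log2 difference was at least 8.08 ± 0.54 in E81, 8.60 ± 0.54 in E100, 4.41 ± 0.54 in E99 and 4.22 ± 0.54 in wild type (SE). Against vector it was 4.07 ± 0.54 in wild type and 3.62 ± 0.54 in E99 (SE). The E99 difference from vector was smaller because 1 vector array was at 172. The SEs share a spread over all groups, and the SRFdM-VP16 groups, all at the floor, add none to it. This narrows the SEs.

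**Figure D1:**
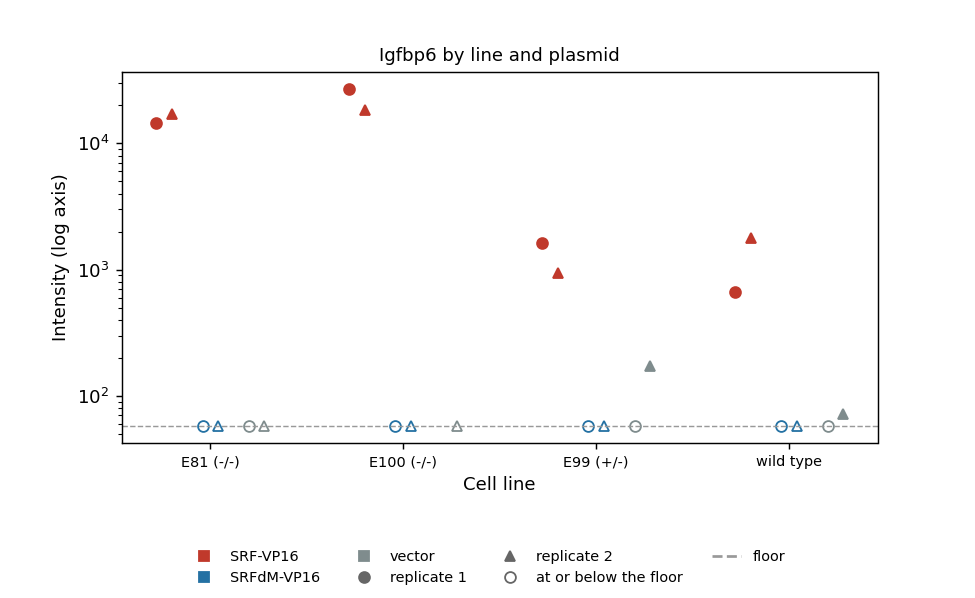
Igfbp6 intensity (log axis) by cell line, with SRF-VP16, SRFdM-VP16 and vector side by side and 1 point per array; open points are values at or below the floor of 58 and are drawn there. The 4 SRF-VP16 points of the -/- lines sit between 14409 and 27179, those of E99 and wild type between 659 and 1785, and no control point is above 172.

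Igf2, the embryonic growth factor, had 2 probe sets that disagreed. The brighter one was high in all 8 SRF-VP16 arrays. With SRF-VP16 it was 9083 and 15151 in E81, 11269 and 7306 in E100, 5664 and 3031 in E99, and 5467 and 4684 in wild type. With SRFdM-VP16 it was -359 and -260 in E81, -764 and -996 in E100, -22 and -316 in E99, but -531 and 3918 in wild type. With vector it was -771 and -1164 in E81, -1048 in E100, -576 and -602 in E99, but -622.1 and 4127 in wild type. So 13 of the 15 control arrays were at the floor, and the other two were the wild-type controls numbered 2, whose values lay within the range of the wild-type and E99 arrays with SRF-VP16.

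The SRF-VP16 mean of the brighter Igf2 probe set was 10702 ± 3380 in the -/- lines (SD, n = 4), against 4712 ± 1198 in wild type and E99 together (SD, n = 4), a ratio of 2.27. The same ratio was 15.4 for Igfbp6, and the difference between these ratios was not tested. Against SRFdM-VP16 the Igf2 level in the -/- lines was at least 178-fold higher, a log2 difference of 7.47 ± 1.21 (SE). By line the difference was at least 7.66 in E81, 7.29 in E100 and 6.16 in E99, and it was 3.41 in wild type, each ± 1.71 (SE). Without the wild-type controls numbered 2 it was at least 6.45 ± 0.48 in wild type (SE). The fit shares a spread over all groups, and these controls widened it, so the larger SEs of every line include their deviation. Without them all control arrays were at the floor. Groups at the floor have no spread on the log2 scale, which narrows the shared spread, so the SE of 0.48 is likely too small.

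The dimmer Igf2 probe set ran from -179 to 79 over the 23 arrays, and 1 array, wild type with SRF-VP16 replicate 1, was above the floor. Its log2 difference was 0.00 ± 0.08 in the -/- lines (SE), where all 8 arrays compared were at the floor. The files do not say which part of the transcript either probe set covers.

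**Figure D2:**
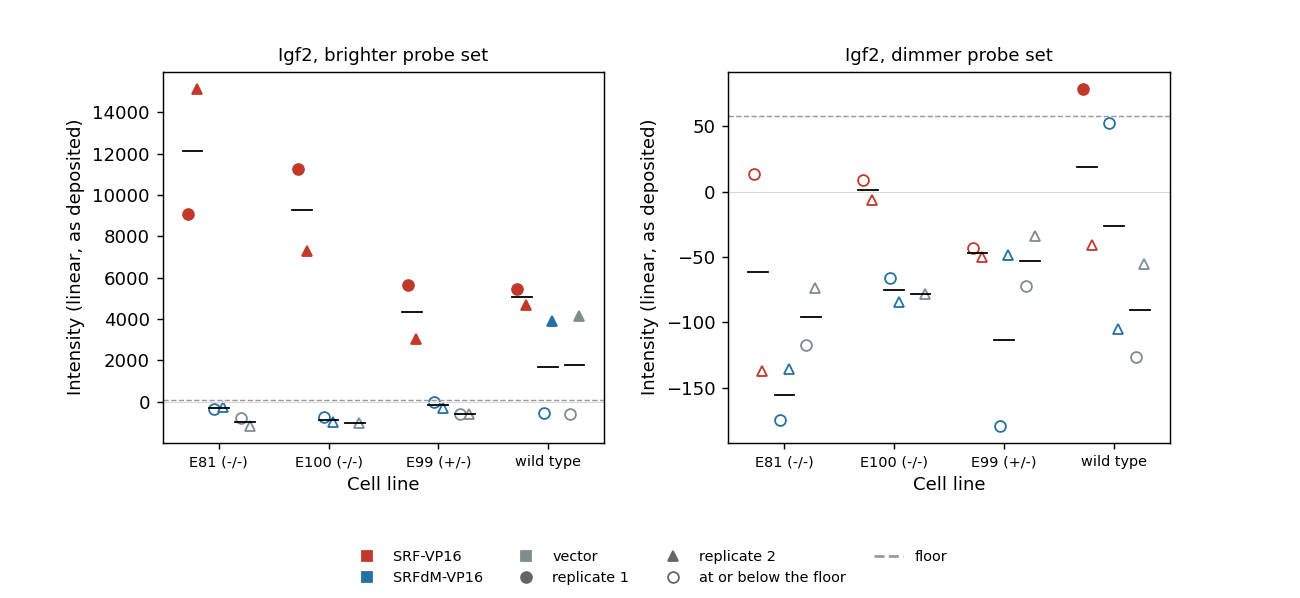
Intensity (linear, as deposited) of the brighter and the dimmer Igf2 probe set by cell line, 1 point per array with SRF-VP16, SRFdM-VP16 and vector side by side; short bars are group means, the dashed line is the floor and open points lie at or below it. The brighter probe set reaches 15151 and rises above the floor in control arrays only in 2 wild-type arrays, while the dimmer one stays between -179 and 79.

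H19 was read by a probe set annotated to both H19 and Mir675, a miRNA whose locus lies inside H19. The locus, chr7:142575530-142578146 on GRCm38.p6, is 72.6 kb from Igf2. With SRF-VP16 the intensity was 1202 and 1516 in E81, 790 and 808 in E100, 261 and 617 in E99, and 1778 and 2065 in wild type. With SRFdM-VP16 it was 494 and 334 in E81, 385 and 436 in E100, 291 and 398 in E99, and 576 and 1143 in wild type. With vector it was 666 and 564 in E81, 732 in E100, 297 and 364 in E99, and 843.3 and 1498 in wild type. Unlike Igfbp6 and Igf2, this transcript was well above the floor in all 23 arrays, and its highest values were in wild type, not in the -/- lines. SRF-VP16 and SRFdM-VP16 arrays did not overlap in E81, E100 and wild type but overlapped in E99. Within a line, here and below, this sets 2 arrays against 2. The share of all kept probe sets that do the same is not given, so nothing is read from it. The log2 difference was 1.35 ± 0.31 in the -/- lines, 0.24 ± 0.44 in E99 and 1.24 ± 0.44 in wild type (SE). Without the wild-type controls numbered 2 it was 1.73 ± 0.48 in wild type (SE). Against vector it was 0.63 ± 0.35 in the -/- lines (SE), where vector arrays were above SRFdM-VP16 arrays with no overlap.

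Igfbp3, the main carrier of IGFs in serum, had 1 probe set near background and 1 below it. The kept probe set was 167 and 444 in E81, 172 and 179 in E100, 145 and 183 in E99, and 382 and 225 in wild type with SRF-VP16. With SRFdM-VP16 it was -195 and 102 in E81, 58 and -29 in E100, 13 and 134 in E99, and 38 and 573 in wild type. With vector it was -9 and 156 in E81, -146 in E100, 128 and 157 in E99, and 36.7 and 611 in wild type. The -/- arrays with SRF-VP16 all lay above the -/- control arrays, whereas in wild type the groups overlapped because the control arrays numbered 2 were the highest of all. In the -/- lines the log2 difference from SRFdM-VP16 was 1.71 ± 0.76 (SE), with 3 of 4 SRFdM-VP16 arrays at the floor. The other Igfbp3 probe set ran from -881.7 to 91, was above the floor in 1 array and did not pass the filter.

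Igfbp2, a binding protein abundant in embryonic tissue, was bright in all 23 arrays, from 2195 to 7871. With SRF-VP16 it was 7871 and 6082 in E81, 3974 and 2195 in E100, 5158 and 3988 in E99, and 6253 and 3911 in wild type. With SRFdM-VP16 it was 3847 and 2432 in E81, 5652 and 2647 in E100, 3422 and 5012 in E99, and 3775 and 4213 in wild type. SRF-VP16 and SRFdM-VP16 arrays, 2 against 2 in each line, did not overlap in E81, where SRF-VP16 was higher, and overlapped in the other 3 lines. Over both -/- lines the log2 difference was 0.39 ± 0.28 (SE).

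Igf1r, the signalling receptor, was above the floor in all 23 arrays, from 398 to 2080. In the -/- lines it averaged 1277 ± 425 with SRF-VP16 and 814 ± 145 with SRFdM-VP16 (SD, n = 4 each), and the arrays overlapped, with a log2 difference of 0.61 ± 0.51 (SE). Igf2r, which clears IGF2, ran from -269 to 581 and was above the floor in 11 of 23 arrays. Its log2 difference in the -/- lines was -0.17 ± 0.84 (SE), and the arrays overlapped.

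Igfbp4, a binding protein known mainly as an inhibitor of IGF action, had 3 probe sets, called A, B and C here, all dim. Probe set A ran from -79 to 157, B from -99.3 to 388 and C from -233 to 769. In the -/- lines their log2 differences between SRF-VP16 and SRFdM-VP16 were -0.54 ± 0.36, 1.24 ± 0.49 and -0.09 ± 0.78 (SE), and arrays overlapped in each. The 3 probe sets therefore gave no common direction. Igfbp5 was read by a probe set annotated to both Igfbp5 and Tmem119, which ran from -370 to 102, was above the floor in 1 array and did not pass the filter. The Igfbp5 locus lies 5.59 kb from Igfbp2 on chromosome 1.

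Counted over the 11 kept probe sets in the -/- lines, 4 had every SRF-VP16 array above every SRFdM-VP16 array (Igfbp6, the brighter Igf2, H19 with Mir675, and Igfbp3), and 0 had every array below. Over all kept probe sets of the array these shares were 4.93% and 1.13%. The members were chosen with this contrast known, so nothing is read from the count. The same 4 were higher than every vector array, where 4.93% of all kept probe sets were higher and 8.44% lower. Over all 4 lines Igfbp6 was the only member whose 8 SRF-VP16 arrays all lay above the 8 SRFdM-VP16 arrays. That held for 0.0933% of kept probe sets, and 0.0104% lay below in every array. The median log2 difference of the members in the -/- lines was 0.61, beside 0.04 over all kept probe sets.

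**Figure D3:**
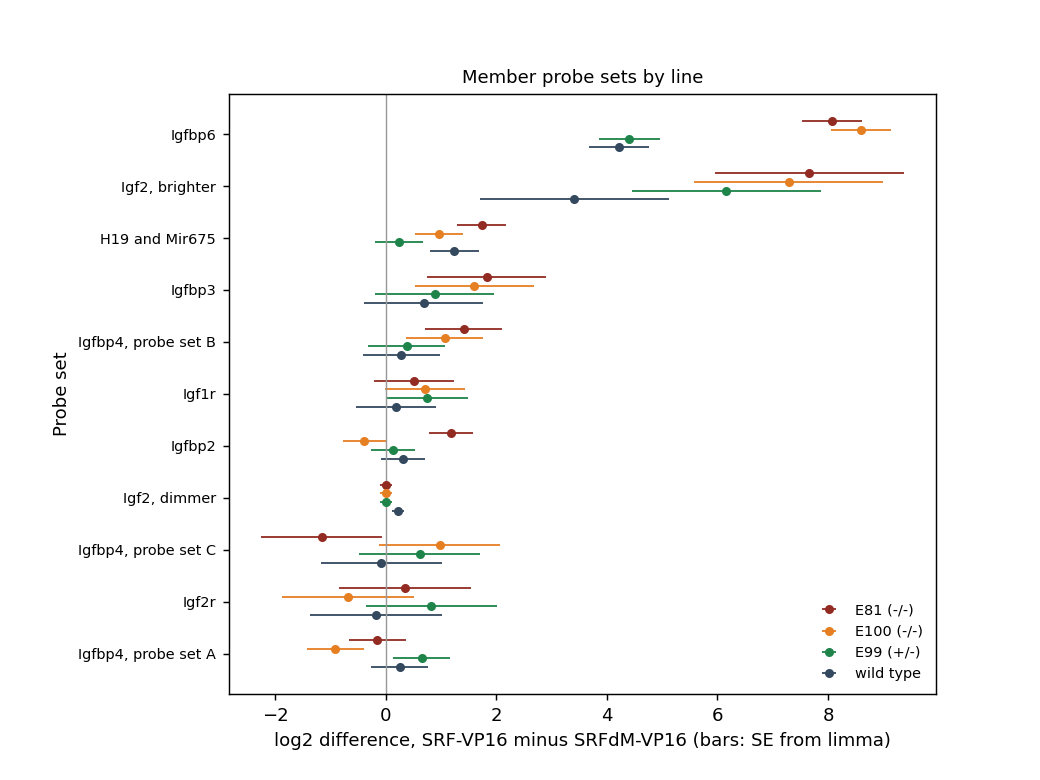
Log2 difference between SRF-VP16 and SRFdM-VP16 for the 11 kept member probe sets (x axis), 1 point per cell line with its SE from the limma fit. Igfbp6 lies at 8.08 and 8.60 in the -/- lines and 4.41 and 4.22 in E99 and wild type, the brighter Igf2 probe set between 3.41 and 7.66, and the other members stay below 2.

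The lines with vector, and E81 against E100, are contrasts other than those that chose the members. The E81 and E100 effects entered the choice as their mean, and their difference was tested here, although an earlier look at these arrays had tested it too. Comparisons were fitted with limma over all 9643 kept probe sets, two-sided, with Benjamini-Hochberg adjustment at 5%. The first asked whether the lines differed with vector alone. In -/- against wild type 0 of the 11 member probe sets passed, with a smallest adjusted p of 1 and 0 at an unadjusted p under 0.05, beside 0.228% and 4.76% of all kept probe sets. For E99 against wild type 0 passed, with a smallest adjusted p of 0.292 and 1 at an unadjusted p under 0.05, beside 0.166% and 5.25% of all. The dimmer Igf2 probe set and Igfbp4 probe set B were at the floor in every vector array. Neither could pass, so these counts do not show that the lines are alike in all members.

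The member nearest to the threshold in E99 was the H19 and Mir675 probe set. It averaged 330.5 in E99 with vector and 1171 in wild type with vector (n = 2 each), a log2 difference of -1.77 (95% interval -2.72 to -0.82) with limma's adjusted p of 0.292. Without the wild-type controls numbered 2 the difference was -1.36. In the -/- lines with vector it averaged 654, a log2 difference of -0.75 from wild type (95% interval -1.64 to 0.14) with limma's adjusted p of 1, and of -0.33 without the wild-type controls numbered 2. For the brighter Igf2 probe set the -/- against wild-type difference was -3.08 (95% interval -6.53 to 0.37) with limma's adjusted p of 1. It was 0.00 without the wild-type controls numbered 2, because all vector arrays left were at the floor. For Igfbp6 the difference was -0.16 (95% interval -1.25 to 0.94). All 3 -/- vector arrays and 1 of the 2 wild-type ones were at the floor for Igfbp6. This comparison therefore could not decide whether the lines differ in it.

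The second question was whether the effect of SRF-VP16 differed between the 2 -/- lines, as SRF-VP16 minus SRFdM-VP16 in E81 less the same in E100. Among the members 0 of 11 passed, with a smallest adjusted p of 0.431 and 1 at an unadjusted p under 0.05, beside 0.145% and 10.8% of all kept probe sets. The median of this difference over all kept probe sets was 0.52. For Igfbp6 the effects differed by -0.52 (95% interval -2.18 to 1.14) with limma's adjusted p of 0.788, and for the brighter Igf2 probe set by 0.37 (95% interval -4.85 to 5.59). For both probe sets all 4 SRFdM-VP16 arrays of the -/- lines were at the floor. Each effect is thus a lower bound, and these differences compare only the SRF-VP16 arrays of E81 and E100. They cannot decide whether the fold effects differ. The intervals are also wide, so the effects in E81 and E100 are not shown to be alike. The dimmer Igf2 probe set was at the floor in all -/- arrays compared and could not pass. The Igf2 interval rests on the spread shared by all groups, which the wild-type controls numbered 2 widened, and not on E81 and E100 alone.

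Igfbp2 was the member with an unadjusted p under 0.05. Its SRF-VP16 effect was 1.57 larger in E81 than in E100 on the log2 scale (95% interval 0.37 to 2.77), and limma's adjusted p was 0.431. Without the E81 SRFdM-VP16 array that stood apart the difference was 1.90, with limma's adjusted p of 0.604. Without E100 SRFdM-VP16 replicate 1 it was 1.02, with limma's adjusted p of 0.643, and without replicate 2 it was 2.11, with limma's adjusted p of 0.271.

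The SRF-VP16 effects in E99 and in wild type both entered the choice, so their difference is given for the members without a test. Over all kept probe sets 0.0104% passed. The Igfbp6 effects differed by 0.18 ± 0.77, E99 minus wild type (SE). All SRFdM-VP16 arrays were at the floor for Igfbp6, so this compares only SRF-VP16 arrays. The effects of the brighter Igf2 probe set differed by 2.75 ± 2.42 (SE). Without the wild-type controls numbered 2 they differed by -0.29, where all SRFdM-VP16 arrays left were at the floor.

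The last question was whether E81 and E100 differed under both control plasmids together, 4 arrays against 3. Among the members 0 of 11 passed, with a smallest adjusted p of 0.263 and 1 at an unadjusted p under 0.05, beside 0.788% and 13.7% of all kept probe sets. Of the 76 that passed, 0 were higher and 76 lower in E81. The median of this difference over all kept probe sets was -0.27. The member with the smallest p was Igfbp4 probe set A, with -1.07 (95% interval -1.95 to -0.20) and limma's adjusted p of 0.263. Igfbp6 and both Igf2 probe sets were at the floor in all 7 arrays. They could not pass, so the comparison decides nothing about them.

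Beside the members, a list of 56 other genes of the IGF pathway was followed, of which 35 were on the array and 29 passed the filter. It was drawn up with earlier results of these arrays known. In the comparisons of lines with vector, of the SRF-VP16 effect in E81 and E100, and of that effect in E99 and wild type, 0 of the 29 passed, with 1, 1, 5 and 0 at an unadjusted p under 0.05. Over all kept probe sets the unadjusted shares were 4.76%, 5.25%, 10.8% and 1.56%. Between E81 and E100 under control plasmids 2 fell in E81 and 0 rose, where 0.788% of all kept probe sets passed.

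Htra1, a secreted serine protease that can cleave IGF-binding proteins, was the stronger of these. With control plasmids it was 265, 320, 73 and 104 in E81 and 2102, 1258 and 1879 in E100, with no overlap. The log2 difference was -3.46 ± 0.43 (SE) with limma's adjusted p of 0.0016. Without the E81 SRFdM-VP16 array that stood apart it was -3.39. Without the lone E100 vector array it was -2.48, with limma's adjusted p of 0.049.

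Shc1, an adaptor that links receptor tyrosine kinases such as the IGF1 receptor to Ras, was the second. With control plasmids it was 353, 772, 1038 and 1100 in E81 and 2457, 2166 and 1998 in E100, with no overlap. The log2 difference was -1.52 ± 0.30 (SE) with limma's adjusted p of 0.030. Without the same E81 array it was -1.24 and no longer passed, with limma's adjusted p of 0.067. It was also lost, at an adjusted p of 0.077, under quantile normalization, and at 0.053 with the replicate number as a block within each line.

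With SRF-VP16 the arrays of the 2 -/- lines overlapped for both genes. Htra1 was 6210 and 5733 in E81 and 8331 and 5932 in E100, against 900 to 2006 in wild type and E99. Its log2 difference from SRFdM-VP16 was 4.36 ± 0.54 in E81, 2.11 ± 0.54 in E100, 1.89 ± 0.54 in E99 and 0.89 ± 0.54 in wild type (SE). Its arrays, 2 against 2 in each line, did not overlap in any of the 4 lines. The E81 and E100 effects differed by 2.24 (95% interval 0.59 to 3.90), and this did not pass, with limma's adjusted p of 0.431. Shc1 was 2350 and 2339 in E81 and 2825 and 1898 in E100 with SRF-VP16. Its effects differed by 2.16 (95% interval 1.01 to 3.31), with limma's adjusted p of 0.273.

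Of the 29 pathway genes, 3 had every SRF-VP16 array above every SRFdM-VP16 array in the -/- lines and 1 had every array below, beside the shares of 4.93% and 1.13% given above. Htra1 averaged 6552 ± 1202 with SRF-VP16 and 986 ± 872 with SRFdM-VP16 (SD, n = 4 each). Akt1, a kinase downstream of the IGF1 receptor, averaged 670.5 ± 203 with SRF-VP16 and 280 ± 120 with SRFdM-VP16, a log2 difference of 1.31 ± 0.31 (SE). Ctsd, a lysosomal protease that also cleaves binding proteins, averaged 15029 ± 2476 with SRF-VP16 and 8401 ± 2140 with SRFdM-VP16, a log2 difference of 0.86 ± 0.34 (SE). Grb10, an adaptor that restrains insulin and IGF1 receptor signalling and is itself imprinted, averaged 336 ± 35.3 with SRF-VP16 and 403.5 ± 19.7 with SRFdM-VP16, a log2 difference of -0.27 ± 0.29 (SE). Against vector 4 of the 29 were higher and 2 lower with no overlap, beside 4.93% and 8.44% of all kept probe sets. Htra1, Akt1 and Ctsd were among the 4 higher, and Grb10 overlapped. Igf1, the other ligand, averaged 984.5 ± 340 with SRF-VP16 and 774 ± 250 with SRFdM-VP16, and its arrays overlapped. The median log2 difference of the pathway genes was 0.00, beside 0.04 over all kept probe sets.

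Because Igf2, Igf2r and H19 are imprinted, 32 other imprinted genes were followed as well, of which 26 were on the array and 24 passed the filter. In the -/- lines 3 had every SRF-VP16 array above every SRFdM-VP16 array and 0 had every array below, beside 4.93% and 1.13% of all kept probe sets. Against vector 2 were higher and 1 lower without overlap, beside 4.93% and 8.44%. Each gene was read by its brightest kept probe set. Peg3, a zinc-finger protein expressed from the paternal copy, had a log2 difference of 2.01 ± 0.88, Ndn, which encodes necdin, one of 1.93 ± 0.49, and Gnas, which encodes a G protein subunit, one of 1.31 ± 0.30 (SE). Against vector the Ndn difference was 1.62 ± 0.55, while Peg3, at 0.97 ± 0.99, and Gnas, at 1.02 ± 0.34, overlapped (SE). Without the E81 SRFdM-VP16 array that stood apart Peg3 was at 1.16 and Ndn at 1.41. The dimmer probe sets of Peg3 (0.75 ± 0.84) and Gnas (-1.64 ± 0.38 and 0.10 ± 0.43) overlapped between SRF-VP16 and SRFdM-VP16 (SE), so these genes had no common reading over their probe sets. The median of the 24 was 0.35, beside 0.04 over all kept probe sets.

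Under control plasmids 1 of the 24 fell in E81 relative to E100 and 0 rose, beside 0.788% of all kept probe sets. This was Cdkn1c, a cyclin-dependent kinase inhibitor expressed from the maternal copy. It was 328, 394, 280 and 801 in E81 and 4279, 5069 and 3945 in E100, a log2 difference of -3.38 ± 0.61 (SE) with limma's adjusted p of 0.020. Under SRF-VP16 the arrays of the 2 lines, 2 against 2, did not overlap either, with 420 and 1305 in E81 and 5342 and 7365 in E100. Without the E81 SRFdM-VP16 array that stood apart the control-plasmid difference was -3.31, with limma's adjusted p of 0.060. With the replicate number as a block within each line limma's adjusted p was 0.083. In limma's other 4 comparisons 0 of the 24 passed, with 2 at an unadjusted p under 0.05 for -/- against wild type with vector, 4 for E99 against wild type with vector, 1 for the SRF-VP16 effect in E81 minus E100 and 0 for that in E99 minus wild type, beside 4.76%, 5.25%, 10.8% and 1.56% of all kept probe sets.

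**Figure D4:**
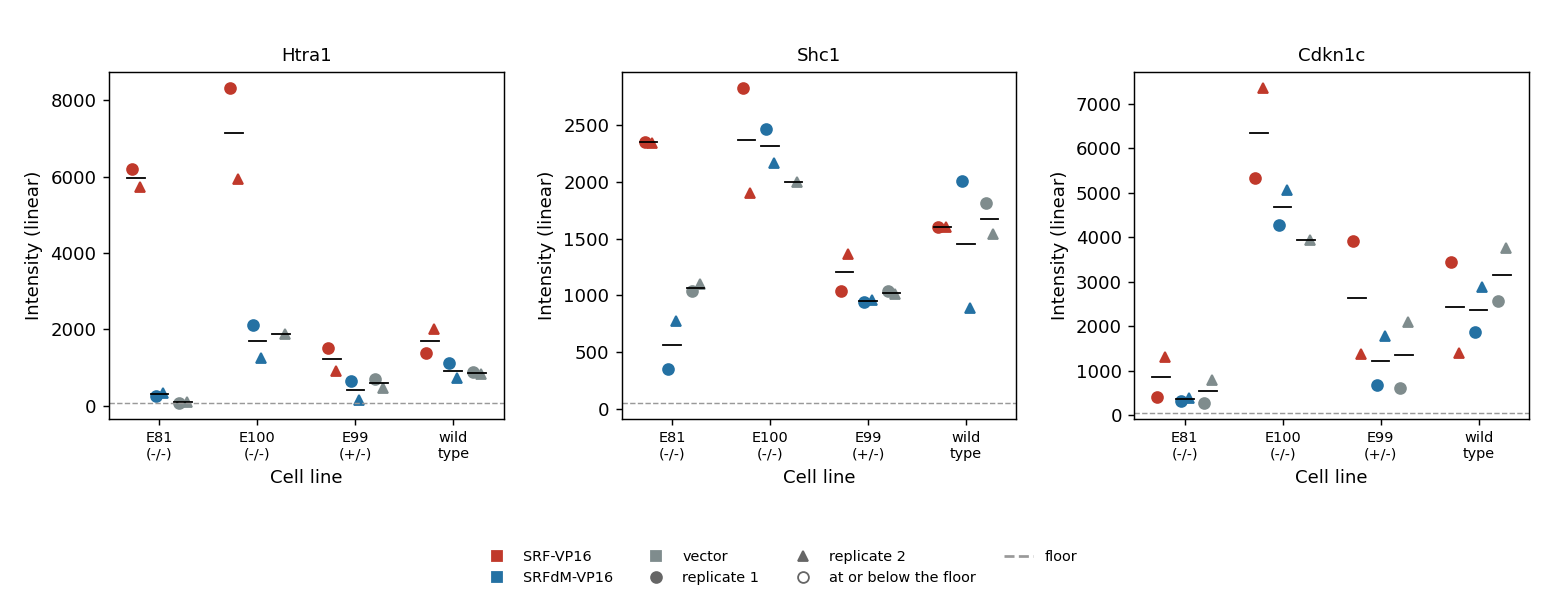
Intensity (linear) of Htra1, Shc1 and Cdkn1c by cell line, 1 point per array with SRF-VP16, SRFdM-VP16 and vector side by side; short bars are group means. Control arrays of E81 lie below those of E100 in all 3 panels, and SRF-VP16 arrays of the 2 lines are close for Htra1 and Shc1 but not for Cdkn1c.

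The wild-type control arrays numbered 2 bore on several members. They lay above all 13 other control arrays for 4 of the 11 kept member probe sets, beside 2.46% of all kept probe sets. The brighter Igf2 probe set was 3918 with SRFdM-VP16 and 4127 with vector, against a highest value of -22 in the other control arrays. Igfbp3 was 573 and 611 against at most 157, Igf1r 1737 and 1629 against at most 1055, and the H19 and Mir675 probe set 1143 and 1498 against at most 843.3. Igfbp6 was not among them, at 40 and 72 against at most 172. In wild type with SRF-VP16 it was replicate 1 that was high for Igf1r, at 2080 against 437 in replicate 2. The brighter Igf2 probe set and Igfbp3 were also higher in that array, and H19 with Mir675 was lower. Whether that array shares a batch with the wild-type controls numbered 2 is not given in the labels and was not tested.

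**Figure D5:**
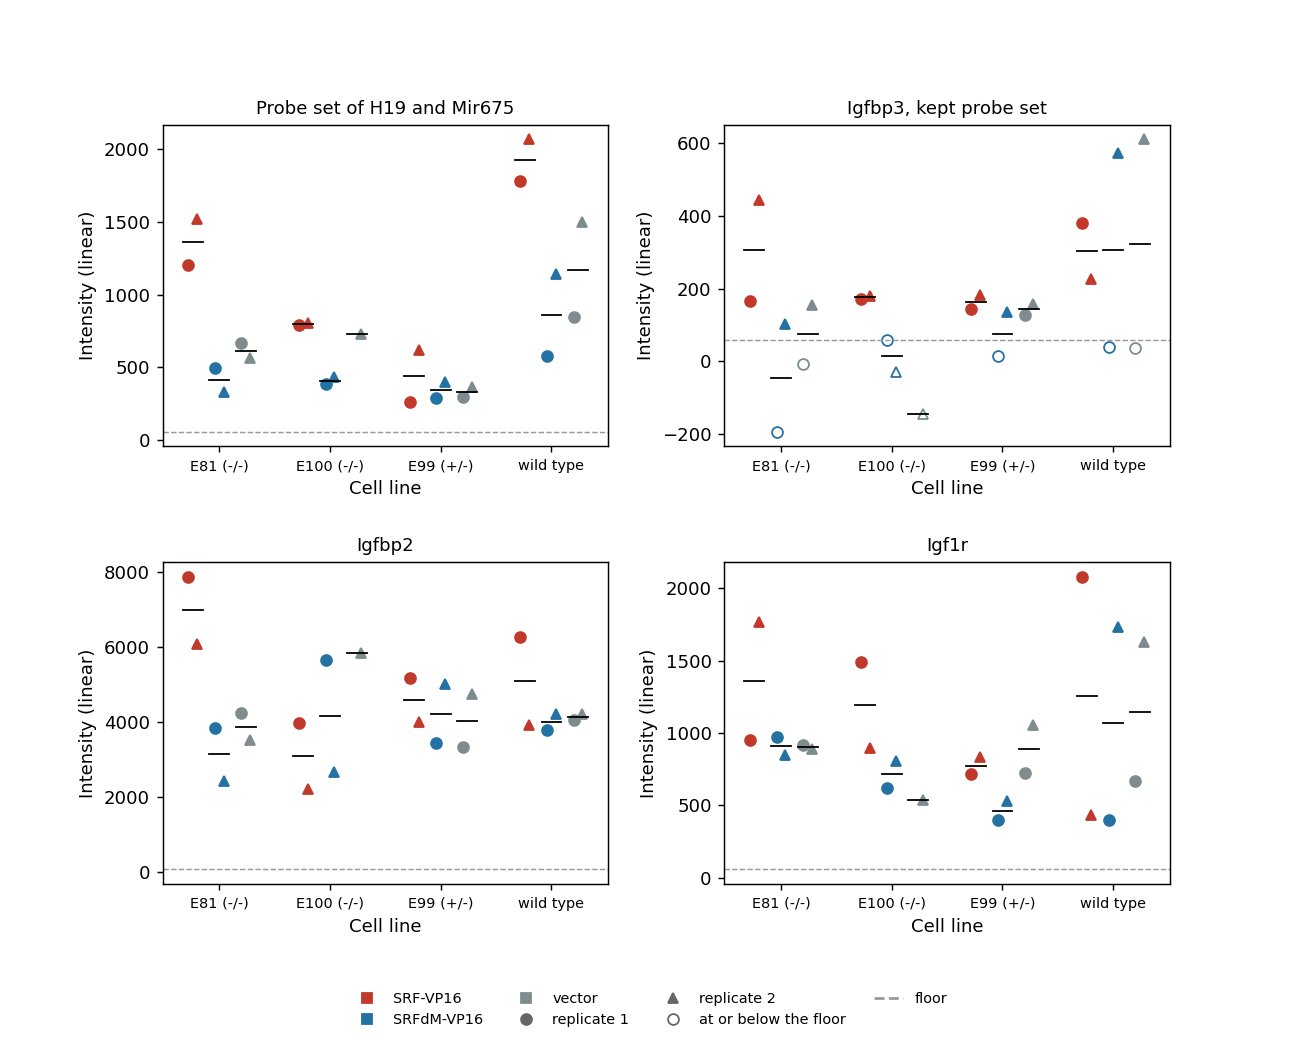
Intensity (linear) of the H19 and Mir675 probe set, the kept Igfbp3 probe set, Igfbp2 and Igf1r by cell line, 1 point per array; short bars are group means and the dashed line is the floor. Triangles mark replicate 2, and the wild-type controls among them are the highest control points for H19 with Mir675, Igfbp3 and Igf1r.

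Markers of other cell types were read beside these levels. In the sums below, intensities under 0 counted as 0. Summed over 10 ES cell markers the intensity was 37326 to 63880 in -/- arrays with SRF-VP16, 55018 to 82715 in wild-type and E99 arrays with SRF-VP16, 56471 to 76764 in the wild-type controls numbered 2, and 52490 to 112406 in the other control arrays. The trophoblast sum over 6 markers was 711 to 3041 in -/- arrays with SRF-VP16, 383 to 991 in wild-type and E99 arrays with SRF-VP16, 292 to 517 in the wild-type controls numbered 2, and 40 to 559 in the other control arrays. Krt7, an epithelial keratin on that list, averaged 1363 ± 897 with SRF-VP16 and -184 ± 73.8 with SRFdM-VP16 in the -/- lines (SD, n = 4 each) and reached 2584. Of the 5 trophoblast markers that passed the filter, Krt7 and Tpbpa were higher there without overlap, by 4.30 and 0.85 on the log2 scale, with Tpbpa above the floor in 3 of 23 arrays. Cdx2, Eomes and Ascl2, defining factors of trophoblast, overlapped, and Hand1 was above the floor in 1 array. The mesoderm and muscle sum over 6 markers was 1479 to 1923 in -/- arrays and 607 to 1088 in wild-type and E99 arrays with SRF-VP16, and 432 to 1730 over all control arrays. Of the 4 that passed the filter, only Des was higher than with SRFdM-VP16 in the -/- lines without overlap, by 1.44 on the log2 scale. Kdr, Myod1 and Myog overlapped. The fibroblast sum stayed between 106 and 606 over all arrays and the primitive endoderm sum between 1229 and 3086. Col1a2 was above the floor in 1 array, and Foxa2, Ttr, Mesp1 and Nkx2-5 in 0 of 23. The part of the lower ES cell sums and the higher trophoblast sums in the levels of Igfbp6 and Igf2 was not tested.

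The genes whose log2 levels were most like those of Igfbp6 over the 12 group means were Fgfbp1 (Pearson's r = 0.97), Nppb (0.97), F3 (0.96), Cyba (0.96), Krt17 (0.96) and Actc1 (0.95). The Krt17 probe set can hybridise to related keratins. Nppb, which encodes a natriuretic peptide, averaged 7267 in -/- arrays and 342 in wild-type and E99 arrays with SRF-VP16, a step between lines like that of Igfbp6. The genes most like the brighter Igf2 probe set were Acta2 (0.99), Ccn1 (0.98), Krt19 (0.97), Acta1 (0.97), Gsn (0.97) and Tagln (0.97). Acta2, smooth muscle actin, averaged 11312.5 in -/- arrays and 4285 in wild-type and E99 arrays with SRF-VP16, and 1754 in wild-type and E99 control arrays. No gene was in both sets of 6. Among control arrays the brighter Igf2 probe set was above the floor only in the wild-type controls numbered 2, which enter the wild-type control means. The correlations were not computed without these arrays, and their part in the difference between the sets was not tested. Igfbp6 and Igf2 had r = 0.90 with each other over the 12 group means and 0.83 over the 23 arrays. These correlations share the arrays and the step between SRF-VP16 and control plasmids, and they are given as a description.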

How the data were processed

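Total RNA of transfected mouse ES cells was measured on 23 arrays in 12 groups of line and plasmid, taken from the sample titles. The authors deposited 1 table of linear intensities; which software, background correction or scaling made it is not given in the sources. Of its values 29.1% were at or below 0, and array medians lay between 54 and 209. With so few arrays per group, their number limits the precision. Intensities were used as deposited. The 66 control probe sets were left out, values were floored at the 40th percentile (58) and put on the log2 scale, and probe sets above the 40th percentile of their array in at least 2 arrays were kept (9643; 2793 removed). Of the probe sets 10141 had 1 gene symbol, 362 several and 1933 none.

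One model of group means was fitted with limma 3.58.1 (R 4.3.3), using the intensity trend, which left 11 residual degrees of freedom. P-values were adjusted by Benjamini-Hochberg over all kept probe sets, at 5%. The procedure was also run on simulated data, drawn without a floor and with independent arrays. That run therefore says nothing about tests of probe sets at the floor. The spread is shared by all groups, so the lone E100 vector array is taken to vary as the rest do. The members and the gene lists were chosen with earlier results of these data known. Named were all member probe sets, pathway and imprinted genes called in a test or without overlap in the -/- lines, and the 6 genes most correlated with Igfbp6 and with Igf2. Promoter windows are RefSeq's, on GRCm38.p6. Alternatives covered scaling, floor, filter, trend, replicate block, arrays in the fit and each array left out.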

Additional observations from a re-analysis of the deposited data

How the results depend on the processing

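In each of the 4 member tests 0 member probe sets passed, as described or under any alternative run. In the fit as described, members at the floor in all arrays compared could not pass. What moved were counts over all kept probe sets. These were 9643 as described, 12436 with no filter and fewer with a filter at the 60th percentile, so those counts have unlike totals. In the order -/- against wild type with vector, E99 against wild type with vector, the SRF-VP16 effect in E81 minus E100, E81 against E100 under control plasmids, and the SRF-VP16 effect in E99 minus wild type, the counts were 22, 16, 14, 76 and 1. Quantile normalization gave 3, 3, 3, 22 and 2, and division by the median 1, 2, 9, 21 and 2. A filter at the 60th percentile gave 2, 0, 0, 34 and 0, and the inverse hyperbolic sine 0, 0, 1, 45 and 0. A floor at the 60th percentile gave 73, 6, 132 and 0 for all but the SRF-VP16 effect in E81 minus E100, and no filter 87, 22, 155 and 2 for all but E99 against wild type. A fit without the intensity trend gave 7, 8 and 2 in the first 3. A fit of only the arrays of the comparison gave 132, 0, 128 and 9 for all but the SRF-VP16 effect in E81 minus E100. Without the wild-type controls numbered 2 the 2 vector comparisons and the last gave 50, 48 and 3.

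With the replicate number as a block within each line the first 3 counts were 2, 0 and 6, and Shc1 and Cdkn1c no longer passed; of 10 same-numbered pairs within a line 6 had deviations that correlated above 0.1 and 4, those of SRF-VP16 with the controls in wild type and E99, were below 0 (-0.349 to 0.417). The rule that every pair be above 0.1 was not met, so the fit without the block was kept. Within the -/- lines, however, every pair was above 0.1: 0.306, 0.277 and 0.264 in E81 and 0.248 in E100. For E81 against E100 a pairing by number is thus not excluded, and the calls of Shc1 and Cdkn1c depend on leaving it out. Leaving out each array in turn gave 17 to 61, 10 to 50, 7 to 430, 57 to 372 and 1 to 17. They moved by over 1.5 times without 7, 6, 7, 4 and 11 of the 23 arrays. The counts of 430 and 372 came without E81 SRFdM-VP16 replicate 2.

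The Igfbp6 log2 difference in the -/- lines was 5.96 with the higher floor and 11.8 with the inverse hyperbolic sine, and that of the brighter Igf2 probe set 5.10 and 12.6; both follow from where the floor lies. Leaving out 1 array moved them between 8.20 and 8.47 and between 7.29 and 7.66. The Igf2 difference between -/- and wild type with vector ran from -6.15 to 0.00, and it was 0.00 without the wild-type controls numbered 2. The Igfbp4 probe set A difference between E81 and E100 was 0.00 with the higher floor, where all its values lie. Htra1 passed in E81 against E100 under all alternatives run. Division by the median ended the calls of Shc1 (adjusted p = 0.317) and Cdkn1c (adjusted p = 0.110). Cdkn1c also lost its call without E81 vector replicate 1, E81 SRFdM-VP16 replicate 1 or E100 SRFdM-VP16 replicate 1. Shc1 lost its call without any 1 of these arrays, and also without E81 vector replicate 2. Both lost it in a fit of only the arrays of the comparison. Of the other changes described in the -/- lines, those of H19 with Mir675, Igfbp3, Htra1, Akt1, Ctsd, Grb10, Peg3, Ndn and Gnas kept their direction under every alternative run, chosen after seeing the data. Their size did not always hold. With the higher floor Igfbp3 fell to 0.14 and Ndn to 0.90, and with the inverse hyperbolic sine Igfbp3 was 3.02. Division by the median put Grb10 at -0.65. Leaving out 1 array moved Peg3 between 1.16 and 2.86 and Ndn between 1.41 and 2.45.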
